A study of Rattus norvegicus with 8 samples.

Results

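The livers described here came from male Sprague-Dawley rats that had been fed ethanol chronically and then underwent removal of 70% of the liver (partial hepatectomy, PHx). They account for 4 of the 8 arrays of the study, the other 4 being from rats pair-fed a carbohydrate control diet. Of 18166 genes with a probe set that carries a single gene symbol, 8675 had a mean log2 level of at least 5 over the 4 ethanol-fed arrays and were tested. There were 2 ethanol-fed pools. The untreated pool combined RNA of 4 rats, and the other combined RNA of 3 rats given AM21 (an oligonucleotide antisense to miR-21 that carries locked nucleic acid bases) at 7.5 mg/kg into the peritoneum 72 h before the operation and once more right after it. Each pool was measured on 1 array with the liver tissue removed at the operation (0 h) and on 1 array at 24 h, and the animal identifiers were the same at both times, so the 4 arrays form 2 matched pairs. The labels give no age. A sham-operated group was not analysed here, so a change from 0 h to 24 h cannot be told apart from anaesthesia, surgery, feeding around the operation or time of day. AM21 and untreated rats were separate cohorts, and no control oligonucleotide was analysed here, so AM21 and cohort cannot be told apart either.

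After partial hepatectomy the quiescent hepatocytes that remain re-enter the cell cycle. Interleukin-6, tumour necrosis factor and growth factors prime them, cyclin D takes them through G1, E2F and its Rb-family partners switch on the genes of DNA synthesis, and B-MYB and FOXM1 later switch on those of mitosis. In rats the first wave of hepatocyte DNA synthesis comes about a day after the operation, and chronic ethanol is known to impair it. The liver goes on secreting plasma proteins and handling sugars, fats, bile acids and drugs during regrowth. The microRNA that AM21 is directed against is shown because it is the target of the oligonucleotide given to 1 of the pools. Its mature sequence in the RefSeq table (GRCr8, chr10:71902653-71902674, minus strand) has the seed, bases 2 to 8, in capitals.
rno-miR-21-5p: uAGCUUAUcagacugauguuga

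The labelled tissue was checked against its markers. All 8 measured hepatocyte markers were above the level minimum on average, none was called changed by limma (1 had an unadjusted p below 0.05), and Alb (albumin) stood at 12.38 and 12.34 (log2) at 0 h and at 12.31 and 12.30 at 24 h in the untreated and AM21 pools. Of the variance of the 8675 genes over the ethanol-fed arrays, 79.0% lay on the first principal component, which separated 0 h from 24 h. In whole liver, fewer cells of a type and less RNA per cell cannot be told apart.

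The first question was which genes changed from 0 h to 24 h in ethanol-fed liver, and whether both pools moved alike. Most tested genes of DNA replication, mitosis and ribosome assembly and single acute phase genes rose, while most of those of fatty acid and cholesterol synthesis, ethanol and aldehyde oxidation and glucose handling fell, as did 12 of 26 drug-metabolising P450 genes and regulators. In limma's paired fit, 898 genes (10.4%) rose and 810 (9.34%) fell at an adjusted p below 0.05, together 19.7% of those tested. The 1708 called genes all went the same way in both pools, which the test favours, and 74.8% of all tested genes did so. Both 24 h levels lay above both 0 h levels in 32.5% of tested genes and below them in 29%. A change of at least 2-fold (1 log2) in each pool was reached upward by 172 genes (1.98%) and downward by 82 (0.945%). No gene moved at least 2-fold in opposite directions. These 254 genes were 66.3% of the 383 that moved 2-fold in the untreated pool and 67.7% of the 375 that did so in the AM21 pool. Across genes the changes of the pools correlated at r = 0.81, a description, since genes are not independent and both pairs were normalised together. The counts lean on how the spread is estimated: with the spread taken from all 8 arrays, 405 genes rose and 357 fell, all 762 among the 1708, and without a level minimum 245 rose and 116 fell. Of 151 genes that the naming rule took and this fit called, 116 stayed called with that spread and 81 without the minimum. With 1 ethanol-fed pool left out, the spread of the remaining pool had to be assumed to be that of the pair-fed pools, so that the pool and the spread changed at once. The fit without the AM21 pool then gave 0 higher and 3 lower and that without the untreated pool 20 higher and 6 lower.

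**Figure D1:**
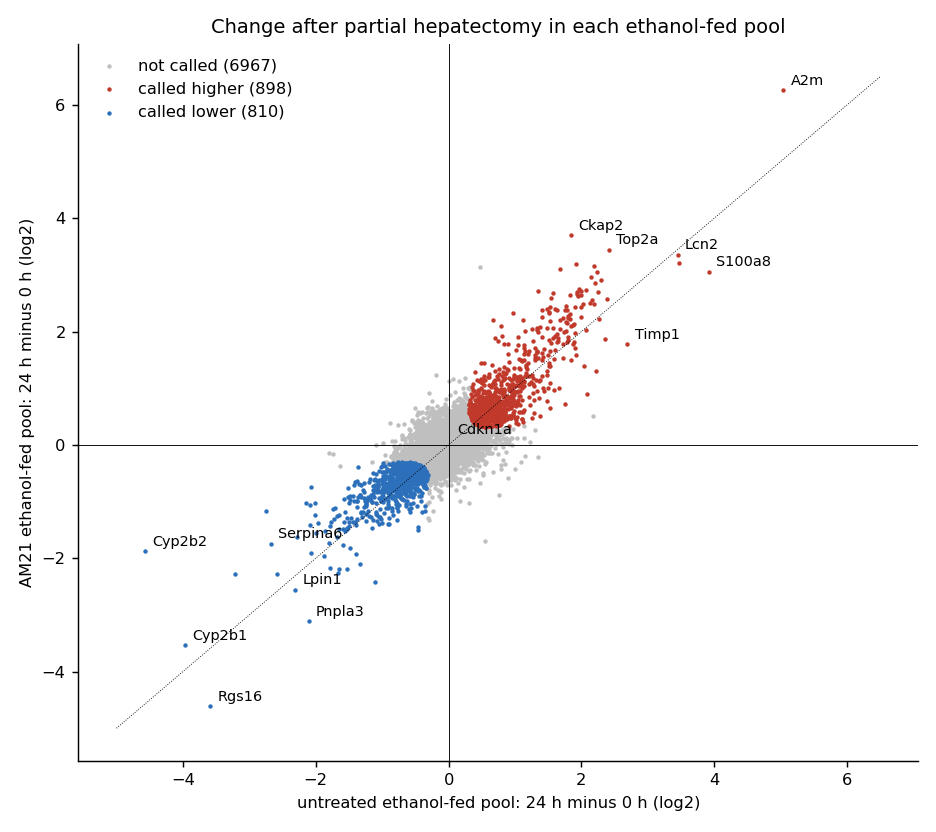
Change from 0 h to 24 h (log2) of each of the 8675 genes in the untreated ethanol-fed pool (horizontal axis) and the AM21 ethanol-fed pool (vertical axis), with the 898 genes called higher in red, the 810 called lower in blue and the dotted line at equal change. The called genes lie in the quadrants of like direction, with A2m at the upper end and Rgs16 and Cyp2b1 at the lower end, and Cdkn1a sits near the origin.

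Acute phase genes, an efflux pump and a myeloid gene led the rises. A2m, a broad protease inhibitor and the leading acute phase protein in rats, stood at 7.01 and 5.31 at 0 h and at 12.05 and 11.56 at 24 h in the untreated and AM21 pools. Both 24 h levels were far above both 0 h levels, and the gene rose 50.1-fold (5.65 ± 0.27 log2, limma's moderated SE, adjusted p = 0.00133). That SE, like each ± here, draws on the spread of all tested genes and not only on the pools. Lcn2, which binds bacterial iron carriers, went from 8.56 and 8.59 to 12.01 and 11.94. Its change was nearly the same in both pools, 3.45 and 3.35, and amounted to 10.6-fold (adjusted p = 0.00088). Abcb1b, a P-glycoprotein efflux pump, went from 5.32 and 5.40 to 8.79 and 8.62, a rise of 10.2-fold (3.34 ± 0.11). S100a8, a calcium-binding protein of neutrophils and monocytes, went from 4.62 and 4.36 to 8.54 and 7.42, a rise of 3.49 ± 0.21, with its 0 h levels under the level minimum so that the size is uncertain. Gpx2, a glutathione peroxidase, rose by 2.27 and 2.22, from 4.76 and 3.81 to 7.03 and 6.03. Its 0 h levels were under the level minimum too, so that size is also uncertain.

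Of the 24 tested acute phase genes, 8 rose, 1 fell and 15 did not pass the test. The median change was 0.17, against 0.01 over all tested genes. Beside A2m and Lcn2, the members that rose were Il1r1 (the interleukin-1 receptor, 1.07), Mt2A (metallothionein, 0.97), Lbp (which presents bacterial lipopolysaccharide, 0.94), Kng1 (kininogen, 0.90), Stat3 (the transcription factor downstream of interleukin-6, 0.75) and Orm1 (0.63). The interleukin-6 receptor Il6r fell by 0.80. The fibrinogen chains, already abundant at 0 h, had mean changes of 0.16 for Fga, 0.18 for Fgb and 0.20 for Fgg, and haptoglobin (Hp) 0.08, none of which passed. With the spread taken from all 8 arrays Mt2A no longer passed, and without the level minimum 3 acute phase genes were called higher.

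**Figure D2:**
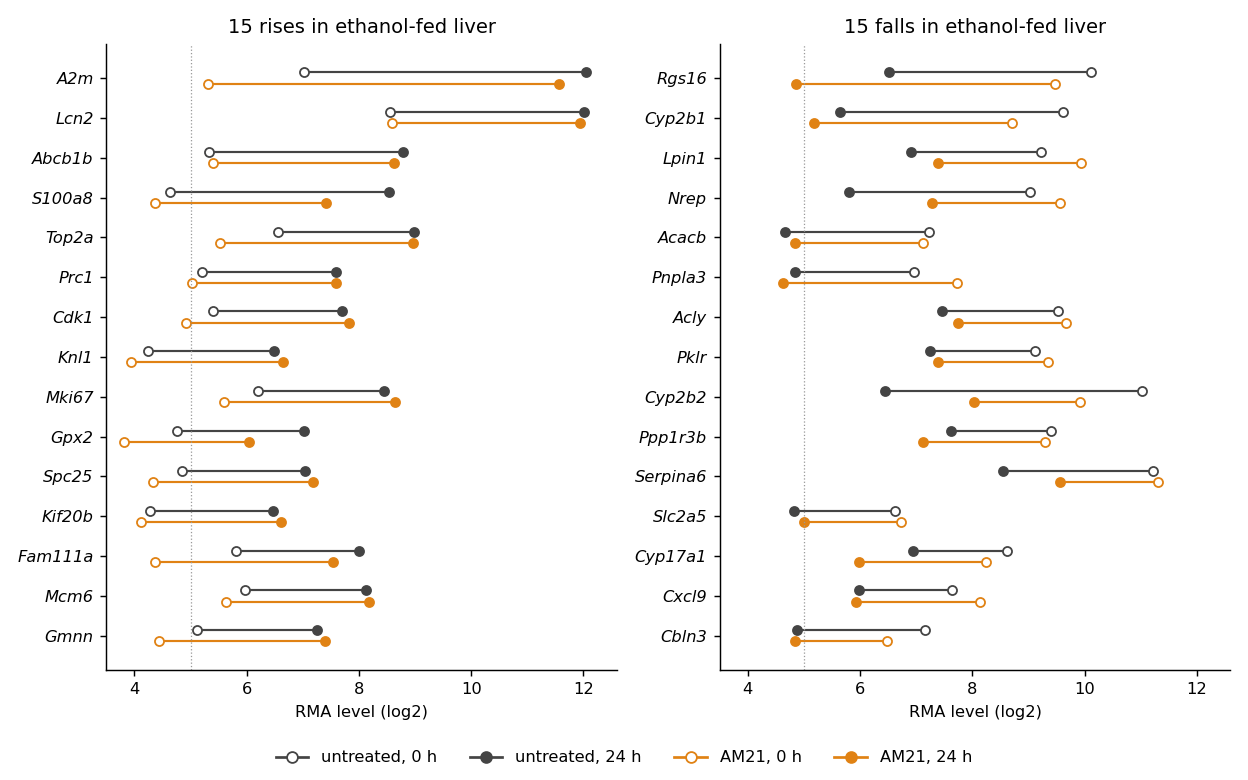
RMA level (log2) of the 15 genes with the largest rises and the 15 with the largest falls, ranked by the smaller of the pool changes, with open points at 0 h, filled points at 24 h, the untreated pool in grey, the AM21 pool in orange and a dotted line at the level minimum of 5. In each gene shown the 0 h and 24 h levels do not overlap, and several genes start or end below the dotted line, where RMA gives no detection call.

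The replication genes rose as a group. Of the list of the replicative helicase and its origin factors 14 of 19 genes were tested, 4 of them under the level minimum at 0 h, and these 14 were called higher, with a median change of 1.52 in the untreated pool and 1.60 in the AM21 pool. The 4 under the minimum at 0 h were tested because of their 24 h level, so they had to be higher. Mcm6, a subunit of the MCM helicase that unwinds DNA, stood at 5.97 and 5.63 at 0 h and 8.13 and 8.18 at 24 h. The 24 h levels differed by less than the 0 h levels, and the rise was 5.12-fold (2.36 ± 0.13, adjusted p = 0.00133). Gmnn, the licensing inhibitor geminin, rose by 2.14 and 2.96, and Gins1, a subunit of the GINS complex that activates the helicase, by 1.94 and 2.66. The other MCM genes rose as well: Mcm3 by 2.05, Mcm4 by 1.86, Mcm5 by 1.85, Mcm2 by 1.44, Mcm7 by 1.42 and Mcm10 by 0.95. The smallest rise was that of Dbf4, the activator of the CDC7 kinase, at 0.79.

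Of the 23 tested genes for DNA polymerases, their clamp and the nucleotide supply, 20 rose and none fell, and the other 3 were higher in both pools without passing, as against 39.5% of all tested genes that were higher in both. Of the 23, 3, Chaf1a and Uhrf1 among them, had a mean 0 h level under 5. They were tested because of their 24 h level, so they had to be higher, and 5 further genes of the list were below the minimum. Rrm2, the subunit of ribonucleotide reductase that limits deoxynucleotide supply, went from 8.69 and 8.23 to 10.76 and 10.97, a rise of 5.29-fold. Pcna, the sliding clamp, went from 8.12 and 7.95 to 9.73 and 9.86. In both genes the pools stood closer to each other at 24 h than at 0 h, and the pool with the lower 0 h level had the larger rise. Chaf1a, which loads histones on new DNA, rose by 1.78, Uhrf1, which guides maintenance methylation, by 1.65 and thymidylate synthase Tyms by 1.49. Of 8 tested genes of homologous recombination and fork repair 7 rose, led by Bard1 (1.94) and Mms22l (1.55), and 14 further genes of that list were below the level minimum. Of the 8 tested, 2, Bard1 and Brca1, were under 5 at 0 h and passed through their 24 h level, so they had to be higher. Without the minimum 11 of the 22 were called. Fam111a, a protease linked to replication forks, was among the 15 largest rises at 2.19 and 3.17.

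Mitotic genes rose as well. Of the 41 genes of the spindle, kinetochore and cytokinesis list with a probe set 33 were tested, and these 33 were called higher, 32 of them at least 2-fold in both pools. Their number is partly set by the level minimum: 24 of the 33 had a mean 0 h level under 5 and were tested because of their 24 h level, so they had to be higher, and 8 genes were below the minimum. Without the minimum 38 of the 41 were called higher. Their median change was 1.77 in the untreated and 2.32 in the AM21 pool. Of the cyclin A and B, CDK1 and regulator list 15 of 17 rose, with medians of 1.19 and 1.84. Of these 17, 3 had a mean 0 h level under 5, so they too had to be higher, and 4 further genes were below the minimum. Cdk1, the kinase that drives entry into mitosis, went from 5.40 and 4.91 to 7.69 and 7.83, a rise of 6.08-fold (2.60 ± 0.17, adjusted p = 0.00151). Top2a, which untangles sister chromatids, went from 6.56 and 5.52 to 8.97 and 8.96, a rise of 7.62-fold. Mki67, the proliferation marker Ki-67, went from 6.21 and 5.60 to 8.44 and 8.64. The pools stood closer to each other at 24 h than at 0 h in all 3 of these genes.

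Within the mitotic lists the smaller rises included those of Ccnb2 (cyclin B2, 0.81 and 0.45) and, in the untreated pool, Aspm (a spindle pole protein, 0.98 against 2.32 in the AM21 pool) and Wee1 (the kinase that holds CDK1 back, 0.79 against 2.11). Ckap2, a microtubule-associated protein, differed most, at 1.84 in the untreated and 3.70 in the AM21 pool. The difference between the pools rests on 1 array per cell of the design and was not tested. Of the 172 genes that rose 2-fold in both pools, 75 (43.6%) belong to the replication, repair and mitosis lists or to the G1 list. Among all 8675 tested genes these lists held 14 (helicase), 23 (polymerase), 8 (repair), 17 (cyclin A and B), 33 (spindle) and 17 (G1). The level minimum sets part of the 43.6%, since some members were tested only because of their 24 h level, and the lists were written with earlier results known. Among the 172, 59 had a mean 0 h level under 5, so that the size of their rise is uncertain. Without the level minimum 13 helicase genes were called, and with the spread from all 8 arrays 31 spindle and 13 helicase genes were.

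The start regions of 4 of these genes are printed because the replication and mitosis lists, which rose together, differ in how often their promoters hold certain short words. Known binding words were searched on both strands of the promoter windows of the RefSeq table (GRCr8, 250 bases before to 50 after the annotated start, the first listed start of a gene). The words were TTTGAA (the CHR element), CCAAT (the CCAAT box) and TTTCGCGC, TTTGGCGC or TTTCCCGC (E2F). Of the 8675 tested genes 7272 had a promoter in the table. The 250 bases before the start are shown 5′ to 3′ on the gene's strand with the matched words in capitals, overlapping words running together: Mcm6 at chr13:42404353-42404602 (minus strand), Cdk1 at chr20:19265043-19265292 (plus), Prc1, which bundles the microtubules of the spindle midzone, at chr1:143659231-143659480 (plus) and Top2a at chr10:84473094-84473343 (minus).
Mcm6: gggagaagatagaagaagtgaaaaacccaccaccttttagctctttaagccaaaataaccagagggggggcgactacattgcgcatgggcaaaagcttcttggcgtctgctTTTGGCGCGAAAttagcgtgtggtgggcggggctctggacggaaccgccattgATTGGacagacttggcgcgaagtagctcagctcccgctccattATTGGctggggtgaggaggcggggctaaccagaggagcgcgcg
Cdk1: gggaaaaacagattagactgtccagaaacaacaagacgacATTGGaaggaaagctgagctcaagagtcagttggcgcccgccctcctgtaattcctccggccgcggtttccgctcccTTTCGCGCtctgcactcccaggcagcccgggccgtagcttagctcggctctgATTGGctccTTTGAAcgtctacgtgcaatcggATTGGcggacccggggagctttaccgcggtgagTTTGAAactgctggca
Prc1: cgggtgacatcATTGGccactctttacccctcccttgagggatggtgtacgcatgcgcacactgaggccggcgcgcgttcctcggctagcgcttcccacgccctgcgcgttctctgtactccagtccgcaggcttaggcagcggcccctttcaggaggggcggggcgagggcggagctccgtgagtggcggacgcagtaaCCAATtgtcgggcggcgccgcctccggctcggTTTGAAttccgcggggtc
Top2a: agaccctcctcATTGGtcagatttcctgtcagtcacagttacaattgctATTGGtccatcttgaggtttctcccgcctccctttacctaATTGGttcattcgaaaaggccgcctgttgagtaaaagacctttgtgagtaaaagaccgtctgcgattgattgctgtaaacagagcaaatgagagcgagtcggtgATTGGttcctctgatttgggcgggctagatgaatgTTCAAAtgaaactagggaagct

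The CHR word was in the promoters of 22 of the 29 spindle list genes found in the table (75.9%), against 11.9% of tested genes and 18.1% of all promoters there. In the cyclin A and B list it was in 9 of 13 (69.2%), and in the helicase list in 2 of 12 (16.7%). An E2F word was in 8 of the 12 helicase genes (66.7%) and 1 of the 29 spindle genes (3.45%), against 3.78% of tested genes and 1.82% of all promoters. The polymerase, clamp and nucleotide list stood between, with an E2F word in 7 of 21 (33.3%), and had CHR in 2 of 21 (9.52%). In the cyclin A and B list an E2F word was in 1 of 13 (7.69%), Cdk1, so the printed Cdk1 promoter is not typical of its list. CCAAT was in 9 of 12 helicase and 22 of 29 spindle genes, against 39.0% of tested genes. A match is a string of letters in the window and no measure of binding.

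G1 genes and the CDK inhibitors moved less uniformly. Of 17 tested G1 cyclin, CDK and Rb-E2F genes 11 rose and none fell. Of the 17, 3 (Ccne1, Ccne2 and Foxm1) had a mean 0 h level under 5. They were tested because of their 24 h level, so they had to be higher, and 4 further genes of the list were below the minimum. Ccne1, cyclin E1, went from 4.73 and 4.52 to 6.38 and 6.36, and Ccne2 rose by 1.51 and 2.35. Ccnd1, cyclin D1, went from 6.90 and 7.30 to 7.92 and 7.98, a rise of 1.80-fold (0.85 ± 0.12, adjusted p = 0.00985), which was not called without the level minimum. Foxm1, the mitotic transcription factor, rose by 1.62, and the Rb relative Rbl1 by 1.76. Without the level minimum 5 genes of this list were called higher.

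Of 14 tested CDK inhibitors and p53 targets 4 rose and 3 fell. Cdkn1a encodes p21, the CDK inhibitor that p53 induces. It read 8.38 in both pools at 0 h and 8.40 and 8.47 at 24 h, so that the mean change was 0.06 ± 0.10 (adjusted p = 0.724). In the pair-fed pools it started lower, at 5.60 and 6.58, and reached 8.47 and 9.15. At 24 h the untreated pools of the diets read 8.40 and 8.47 and the AM21 pools 8.47 and 9.15, while both ethanol-fed 0 h levels lie above both pair-fed 0 h levels. The test of the difference in response gave -2.66 ± 0.19 (unadjusted p = 6.99e-06), with an adjusted p of 0.0606, the smallest of all genes but not below 0.05. Sesn1 (sestrin 1, -1.29), Xpc (a nucleotide excision repair protein, -1.34) and Tp53inp1 (-0.97), all known p53 targets, fell, while Mdm2, the ligase that degrades p53, rose by 0.76, Cdkn2c (an inhibitor of CDK4 and CDK6) by 1.67, Gadd45a by 0.81 and Ccng1 by 0.63. Tp53inp1 did not pass with the spread from all 8 arrays.

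**Figure D3:**
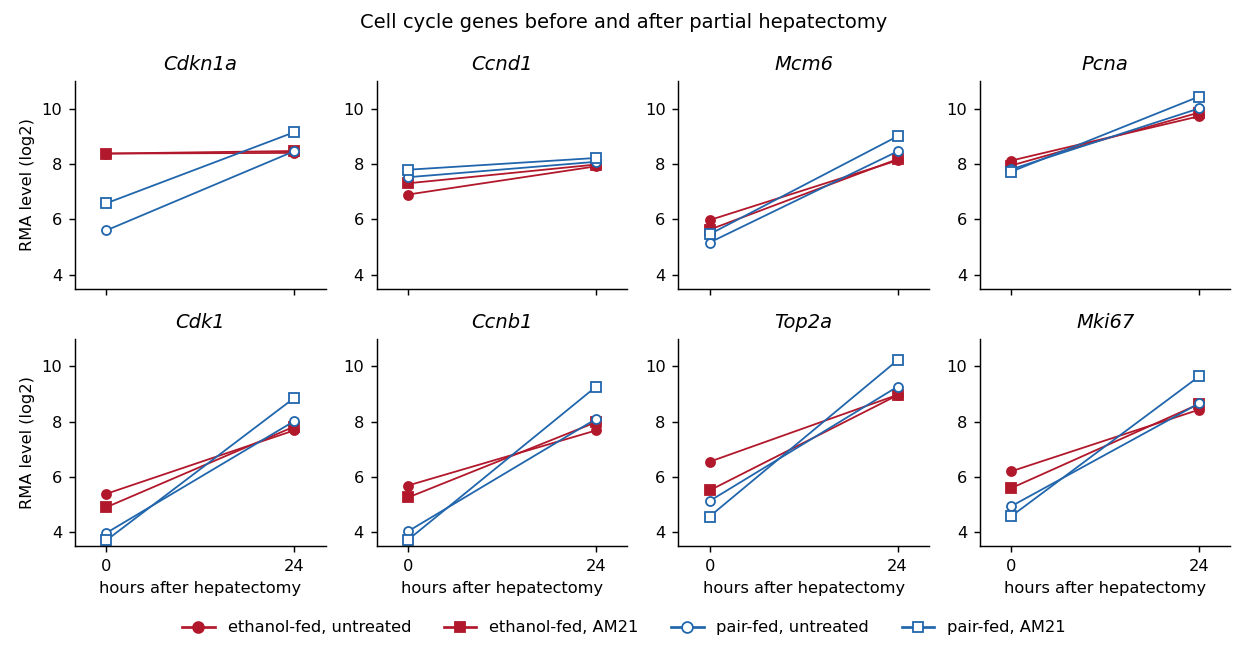
RMA level (log2) at 0 h and 24 h of 8 cell cycle genes in each pool, ethanol-fed pools in red with filled points and pair-fed pools in blue with open points, circles for untreated and squares for AM21. Cdkn1a is flat in the ethanol-fed pools at 8.38 to 8.47 and climbs in the pair-fed pools, while Cdk1, Ccnb1, Top2a and Mki67 climb in all 4 pools and start higher in the ethanol-fed ones.

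Genes that build ribosomes rose by smaller amounts. Of 33 tested ribosome biogenesis genes 18 rose and none fell, and 29 were higher in both pools, with medians of 0.44 and 0.46. Of these 33, 2 had a mean 0 h level under 5, so they had to be higher. Nop58, a core protein of the box C/D particles that guide rRNA methylation, went from 6.97 and 6.71 to 8.04 and 7.87, a rise of 2.16-fold (adjusted p = 0.00285). Its partner Nop56 rose by 1.00 and 1.03 and Nhp2, of the box H/ACA particles, by 1.02 and 1.15. Of 24 nuclear transport and RNA processing genes 17 rose, led by the nuclear lamin Lmnb1 (1.45) and the nucleoporin Nup107 (1.01). Nup107 had a mean 0 h level under 5, so it had to be higher. In the protein folding and degradation list of chaperonin and proteasome subunits 1 of 24 passed (Psmd14, 0.66), though 22 were higher in both pools. Of 19 aminoacyl-tRNA synthetases 3 rose (15.8%, against 10.4% of all tested genes), with Wars1 at 0.89. With the spread from all 8 arrays the ribosome count was 7, the transport count 10 and the synthetase count 0, and without the level minimum they were 3, 2 and 0.

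Signals around the cell cycle were split. Of 22 tested growth factor, receptor and binding protein genes 1 rose and 9 fell. The gene that rose was Hgf, the hepatocyte mitogen made by stellate cells (0.64). Those that fell included Igfbp3 (-1.47) and Igfals (-1.08), which carry IGF-1 in plasma, the growth hormone receptor Ghr (-0.49), Socs2, which damps growth hormone signalling (-1.27), and Egfr, the receptor of epidermal growth factor (-0.76). Of 15 immediate early and AP-1 genes, which peak within hours of the operation, 3 rose and 3 fell. That is 20% each way, against 10.4% higher and 9.34% lower among all tested genes. Socs3, the inhibitor of STAT3 signalling, went from 5.75 and 5.46 to 6.89 and 7.07, while Dusp1, a MAP kinase phosphatase and glucocorticoid target, went from 8.24 and 8.53 to 6.71 and 6.34. Taking the spread from all 8 arrays, 0 of the growth factor genes were called higher and 4 lower, and Socs2 was not among them.

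Dusp1 was 1 of 7 members that fell among 16 glucocorticoid response and steroid handling genes, of which 2 rose. Serpina6, the corticosteroid-binding globulin that liver secretes, went from 11.21 and 11.30 to 8.54 and 9.56, a fall of 2.21 ± 0.22 (adjusted p = 0.0034). Cyp17a1, a steroid hydroxylase, fell by 1.66 and 2.27, Tsc22d3, the classic glucocorticoid target GILZ, by 1.76 and 1.36, and the receptor itself, Nr3c1, by 0.53 and 0.57. The members that rose, Lcn2 and Mt2A, are also in the acute phase list. With the spread from all 8 arrays 4 were called lower, without Cyp17a1, and 1 higher.

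Of 24 endoplasmic reticulum chaperone and XBP1 genes 9 rose and 2 fell. The share higher was 37.5%, against 10.4% of all tested genes, and the share lower, 8.33%, was near their 9.34%. A mean 0 h level under 5 was found in 1 of the 24, which therefore had to be higher. The BiP cofactors Sdf2l1 (1.01) and Dnajb11 (0.97), and the chaperone Hyou1 (0.88), were higher, and the degradation factor Herpud1 was lower (-0.78). In this list 3 were called higher and 1 lower with the spread from all 8 arrays. Among 27 NRF2 antioxidant genes 4 rose and 4 fell, 14.8% each way, near the 10.4% and 9.34% of all tested genes. Nqo1, the quinone reductase, went from 7.05 and 6.77 to 9.05 and 9.03, a rise of 4.37-fold, and Gpx2 rose with it, while Gsta4, a glutathione transferase, fell by 0.61. Gpx2, under 5 at 0 h, was tested because of its 24 h level and had to be higher. Of 18 ATF4 targets 2 rose (Asns, asparagine synthetase, 0.82, and Slc3a2, 0.68) and 4 fell, among them the stress-induced regulator Nupr1 (-0.99 and -1.01). That is 11.1% higher, near the 10.4% of all tested genes, and 22.2% lower against 9.34%. Of the 18, 2, Asns among them, had a mean 0 h level under 5, so they had to be higher. The mean 24 h level of 1 was under 5, so it had to be lower. Once all 8 arrays set the spread, 3 NRF2 genes were called higher and 1 lower, and 1 ATF4 target in each direction, without Asns.

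Of 21 tested interferon and antigen presentation genes 1 rose, Irf1 (0.73), and 5 fell. Cxcl9, a chemokine induced by interferon-gamma, went from 7.64 and 8.13 to 5.99 and 5.93, a fall of 1.92 ± 0.15 (adjusted p = 0.00199). Both 24 h levels were below both 0 h levels. Irf7 fell by 1.01 and 0.95, Ifit2 by 0.85 and 0.82, Isg15 by 0.41 and 0.91 and Cd74, the invariant chain of MHC class II, by 0.63 and 0.62. With the spread from all 8 arrays 0 genes of the list were called higher and 2 lower, and Irf1, Irf7 and Ifit2 were not called.

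The largest fall among all tested genes belonged to Rgs16, a regulator of G protein signalling that fasting and feeding are known to move in liver. It went from 10.11 and 9.48 to 6.52 and 4.87, a fall of 4.10 ± 0.24 (adjusted p = 0.00133), with no overlap of the times. Nrep fell by 3.22 and 2.28, Cbln3 by 2.28 and 1.63 and the fructose transporter gene Slc2a5 by 1.80 and 1.74. Cbln3, Slc2a5, Acacb and Pnpla3 ended with a mean 24 h level under 5, so their falls may be understated.

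Fatty acid synthesis fell almost as a whole. Of 18 tested genes of this pathway and its regulators ChREBP and SREBP-1, 16 fell, none rose and all 18 were lower in both pools (35.4% of all tested genes were), with medians of -1.65 and -1.22. Acly, which makes cytosolic acetyl-CoA from citrate, went from 9.54 and 9.66 to 7.46 and 7.75. That was a fall of 3.99-fold (adjusted p = 0.00133), and the pools differed by less than 0.3 at either time. Acacb, the acetyl-CoA carboxylase at mitochondria, fell by 2.58 and 2.28 and Acaca, the cytosolic one, by 1.08 and 0.83. Scd, the stearoyl-CoA desaturase, went from 10.94 and 10.74 to 9.38 and 9.21. Pklr, the liver pyruvate kinase and a ChREBP target, fell by 1.88 and 1.95, the desaturases Fads1 and Fads2 by 1.67 and 1.52 on average, and Acss2, which activates acetate, by 2.08 and 1.42. Srebf1 itself fell by 0.74. Elovl6, an elongase, was the least alike at -1.79 and -0.15 and did not pass. In the untreated and AM21 pair-fed pools the list had medians of -0.41 and -0.91. In limma's test of the diet difference 8 of the 18 genes had an unadjusted p below 0.05. All 8 had the more negative change in ethanol-fed liver, and none passed after adjustment.

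Of 26 tested genes of triglyceride synthesis, lipolysis and lipid droplets 6 fell and none rose. Lpin1, which makes diacylglycerol, went from 9.22 and 9.94 to 6.91 and 7.39, a fall of 5.39-fold. Pnpla3, a lipid droplet protein whose gene is switched on with lipogenesis, went from 6.95 and 7.74 to 4.84 and 4.63. Dgat2, which makes triglyceride, fell by 0.44 and the hepatic lipase gene Lipc by 0.88. The 20 others did not pass, and the median of the list, -0.12, was close to that of all genes. Under the spread of all 8 arrays 3 of the 6 stayed called.

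Cholesterol synthesis fell with it, and here the ethanol-fed pools went the other way from the pair-fed pools. Of 20 tested genes 17 fell, none rose and 19 were lower in both pools, with medians of -1.04 and -0.60. The untreated pool had the larger fall in each of the 17. Cyp51, lanosterol demethylase, went from 9.35 and 9.37 to 7.86 and 7.93, a fall of 1.47 ± 0.10 (adjusted p = 0.00151). Sqle, squalene epoxidase, went from 9.62 and 9.28 to 8.19 and 8.57, Dhcr7, the last reductase of the pathway, from 9.49 and 9.59 to 8.50 and 8.74, and Idi1, isopentenyl diphosphate isomerase, from 8.36 and 8.04 to 7.41 and 7.67. Tm7sf2 (-1.43), Lss (-1.17), Ebp (-1.07), Pmvk (-1.06) and Msmo1 (-1.01) fell, and so did Fdps by 1.14 and 0.86. Srebf2, the regulator of the pathway, was lower by 0.40 and 0.29 and did not pass, nor did the sterol exporters Abca1 and Abcg5. The count was 9 with the spread from all 8 arrays, without Idi1, and 4 without the level minimum.

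In pair-fed liver the list had median changes of 0.75 (untreated) and 0.22 (AM21). Unadjusted p for the difference was below 0.05 for 19 of the 20 genes, 18 of them with the more negative change in ethanol-fed liver, against 9.48% of all genes. None passed after adjustment in that fit. For Sqle the difference was -2.57 ± 0.28, for Idi1 -2.36 ± 0.24, for Dhcr7 -2.07 ± 0.22 and for Cyp51 -1.97 ± 0.22, each with an adjusted p of 0.135. A fit that also lets the response differ with AM21 called 6 of the 20, and leaving out the AM21 pair-fed pool gave 34 calls of a more negative change over all genes, whereas leaving out any of the other 3 pools gave 0. The levels differed at 0 h: Sqle stood at 7.69 and 8.15 in the pair-fed pools, below both ethanol-fed values, and reached 9.37 and 9.47 at 24 h. The median level of the list was 9.42 and 9.33 at 0 h in the ethanol-fed pools and 7.52 and 8.22 in the pair-fed pools, and at 24 h 8.18 and 8.02 against 8.74 and 8.71.

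**Figure D4:**
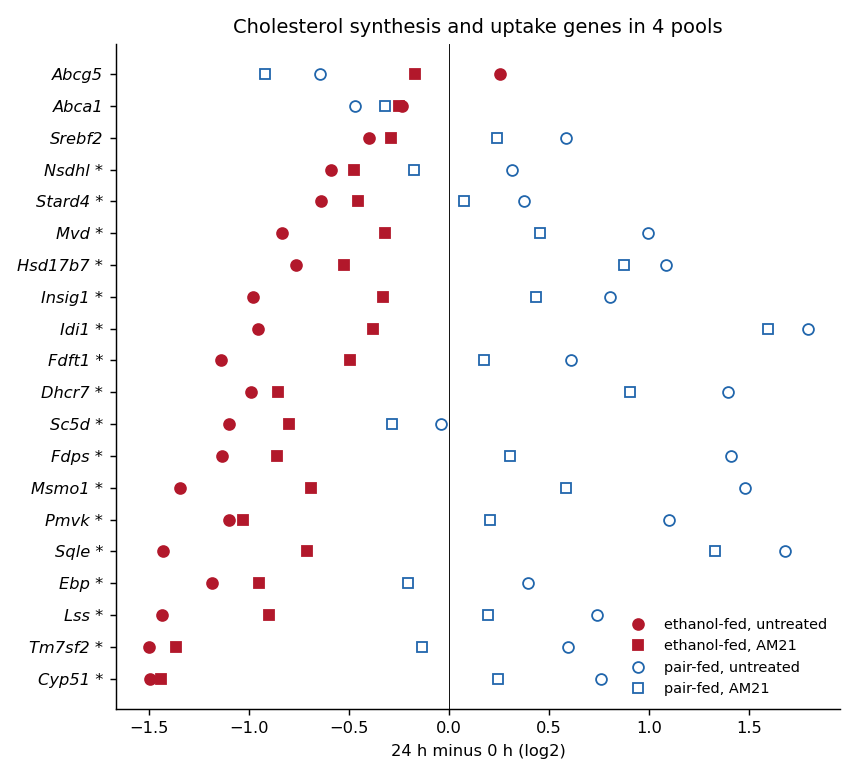
Change from 0 h to 24 h (log2) of the 20 tested cholesterol synthesis and uptake genes in each pool, ethanol-fed in filled red and pair-fed in open blue, circles for untreated and squares for AM21, with an asterisk at the 17 genes called lower in ethanol-fed liver. Red points lie left of 0 for all genes except Abcg5, whose untreated pool is at 0.26, and the blue points of most genes lie right of 0.

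The promoter of Fdps, farnesyl diphosphate synthase, stands for this list (GRCr8, chr2:176804817-176805066, minus strand, the 250 bases before the start, CCAAT in capitals on either strand). CCAAT was in 13 of the 16 genes of the list found in the table (81.2%), against 39.0% of tested genes. The sterol element word TCACNCCAC was in 0 of the 16 and in 1.16% of tested genes, which says only that these letters are not in the windows.
Fdps: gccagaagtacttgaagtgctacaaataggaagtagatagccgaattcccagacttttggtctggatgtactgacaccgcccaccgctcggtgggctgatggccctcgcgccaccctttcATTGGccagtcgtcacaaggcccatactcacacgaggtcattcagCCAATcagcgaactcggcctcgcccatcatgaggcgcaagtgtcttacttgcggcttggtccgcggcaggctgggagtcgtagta

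Of 26 tested drug-metabolising P450 genes and regulators 12 fell, 1, Cyp3a9 (1.29), rose and 13 did not pass. Cyp2b1, which phenobarbital-like inducers raise through the receptor CAR, went from 9.62 and 8.71 to 5.65 and 5.18, a fall of 13.5-fold (adjusted p = 0.00088). Its close relative Cyp2b2 went from 11.02 and 9.92 to 6.45 and 8.04, a fall of 4.57 in the untreated and 1.88 in the AM21 pool. Cyp2b1 and Cyp2b2 are near-identical, so their probe sets can share signal. The male-specific Cyp2c11 fell by 2.15 and 1.03, and Cyp2j3 by 1.65 and 1.23. Without the level minimum 3 genes of the list were called lower, and with the spread from all 8 arrays 11 were.

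Of 16 alcohol and aldehyde oxidation genes 11 fell, none rose and all 16 were lower in both pools, with medians of -0.50 and -0.46. Aldh2, the mitochondrial enzyme that clears acetaldehyde, went from 10.38 and 10.29 to 9.76 and 9.83, a fall of 1.45-fold. Catalase (Cat) fell by 0.51 and Aox1, an aldehyde oxidase, by 1.01. Cyp2e1, the ethanol-inducible P450, was lower by 0.39 and 0.18 and did not pass. The abundant alcohol dehydrogenase gene Adh1c did not pass either, going from 12.06 and 11.97 to 11.83 and 11.93 (limma adjusted p = 0.423). The pair-fed medians were -0.48 and -0.51, and 1 of the 16 genes, Acss2, had an unadjusted p below 0.05 for the difference. With the spread from all 8 arrays 6 genes were called, and without the level minimum 1 was.

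Bile acid genes were mixed, with 3 of 18 higher and 6 lower. Those shares were 16.7% and 33.3%, against 10.4% and 9.34% of all tested genes. Cyp7a1, whose enzyme limits the rate of bile acid synthesis, rose by 0.44 and 0.93 (adjusted p = 0.0279), and Cyp7b1 of the alternative pathway rose by 0.83 and 1.16. Cyp27a1, the first enzyme of that alternative pathway, fell by 1.25 and 1.22, the uptake transporter Slc10a1 by 0.79 and 0.90, the bile acid receptor Nr1h4 by 0.65 on average and its target Nr0b2 by 0.62. Abcb4, the phospholipid pump, rose by 0.55. Taking the spread from all 8 arrays, 1 was called higher and 3 lower. Among 14 conjugation enzymes 2 fell, Sult1c3 (-1.11) and Ugt2b35 (-0.52), and that 14.3% is near the 9.34% of all tested genes.

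Fatty acid oxidation and PPAR-alpha targets included 13 falls and 2 rises among 30. Ehhadh, a peroxisomal oxidation enzyme, went from 10.88 and 10.85 to 9.35 and 9.38, and Ppara itself fell by 1.19 on average and Cpt1a, the gate of mitochondrial oxidation, by 0.79 and 0.99. Cpt2 (0.47) and Acot2 (0.40) rose. In glucose and glycogen handling 11 of 17 fell and none rose. Ppp1r3b, which brings protein phosphatase 1 to glycogen, fell by 1.79 and 2.18, pyruvate carboxylase (Pc) by 1.01 and Pck1, of gluconeogenesis, by 0.59. Of 40 urea cycle and amino acid breakdown genes 14 fell and Aass, of lysine breakdown, rose (0.84). Otc, of the urea cycle, fell by 0.87 and 0.77 and Bhmt, which remakes methionine, by 1.21 and 0.91. Under the spread of all 8 arrays the falls in these 3 lists numbered 6, 5 and 8, and without the level minimum 3, 2 and 2.

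None of the 32 tested respiratory chain and ATP synthase genes passed in either direction, although 2 had an unadjusted p below 0.05 upward and 3 downward in limma's fit. Their changes ran from -0.38 to 0.37, and other settings called at most 2 in either direction. Of 15 clock genes and outputs 20% fell and 6.67% rose, against 9.34% and 10.4% of all tested genes. The 3 that fell were Bhlhe40 (-0.65), Per1 (-0.50) and Npas2 (-0.49), and Per2 rose (0.48). None of those 4 passed with the spread from all 8 arrays, and Per2 was also lost without the pool block, after renewed quantile normalisation and with a variance trend. All 4 depend on the hour of sampling in normal liver, and the labels used here give no hour. Per2 had a mean 0 h level under 5 and was tested because of its 24 h level, so it had to be higher.

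Secreted proteins and identity factors of hepatocytes mostly did not pass. In the coagulation and complement list 4 of 31 fell (F11, -0.70, F12, -0.57, Pros1, -0.51, and Plg, -0.44) and C4bpa rose (0.40). The 12.9% that fell is near the 9.34% of all tested genes. Of 24 plasma carriers and apolipoproteins 5 fell, led by Serpina6, Igfals and Afm (-0.83), and 21 were lower in both pools. Among 23 hepatocyte transcription factors Cebpa (-0.75), Onecut1 (-0.73), Nr1h4 and Nr3c1 fell and Tbx3 (0.69) rose. Once all 8 arrays set the spread, Plg, Pros1, Onecut1, Nr1h4 and Tbx3 did not pass.

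Markers of the other liver cells moved in part. S100a8 and S100a9 (5.18 and 4.55 at 0 h, 7.54 and 6.42 at 24 h) rose, and they are 2 of the 4 tested of 12 neutrophil and monocyte markers. The other 8, Cxcr2 the lowest, were under the level minimum. S100a8 and S100a9 had a mean 0 h level under 5 and passed through their 24 h level, so they had to be higher. The summed linear level of the 12 markers was 622 and 603 at 0 h and 1216 and 789 at 24 h. S100a8 and S100a9 carried most of the gain, since the other 10 summed to 561 and 559 at 0 h and to 657 and 532 at 24 h. Among 19 markers of Kupffer cells and other macrophages Marco (1.06) and Gpnmb (0.92) rose and 4 fell (Cd14, -1.16, Clec4f, -0.71, Cd74, -0.63, and Adgre1, -0.57). The share that rose, 10.5%, is near the 10.4% of all tested genes, and 21.1% fell against 9.34%. Stellate cell and fibroblast markers gave 4 rises and 3 falls among 16, with Timp1, the metalloproteinase inhibitor, from 5.91 and 5.85 to 8.60 and 7.62, and Lrat, the retinol-storing enzyme of quiescent stellate cells, lower by 1.58 and 0.95. Of 15 sinusoidal endothelial markers 3 rose, with Ramp2 at 0.83, and 4 fell, with Ehd3 at -0.82. Ramp2 had a mean 0 h level just under 5, so it had to be higher. The shares called higher and lower were 25% and 18.8% of the stellate list and 20% and 26.7% of the endothelial list. Krt8 (0.63) and Krt18 (0.69), which hepatocytes also express, rose in the cholangiocyte list, and Epcam fell (-0.54). Those 3 did not pass with the spread from all 8 arrays, which left 2 called falls among the macrophage markers, without Clec4f, 1 among the stellate markers and 1 called rise among the endothelial ones.

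Lymphocyte markers were mostly under the level minimum (17 of 20), and 1 of the 3 tested fell (Ccl5, -0.93). Their summed linear level was 710 and 762 at 0 h and 506 and 564 at 24 h. Red cell transcripts set 1 array apart: Hbb-b1, a haemoglobin chain, read 10.55, 10.51 and 10.86 on 3 ethanol-fed arrays and 9.48 on the AM21 array at 24 h, where the pair-fed AM21 array read 9.52. The summed level of the 9 erythroid and platelet markers was 3951, 4038 and 4420 on those 3 and 2274 on that one. No erythroid marker was called (1 of 4 had an unadjusted p below 0.05 in limma's fit), and the part of any of these marker shifts in the results above was not tested.

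The last comparison set the ethanol-fed response beside the pair-fed one. The spread of the changes over genes was smaller in the ethanol-fed pools, with an SD of 0.47 and 0.48 against 0.63 and 0.66. All 172 genes that rose 2-fold in both ethanol-fed pools were also higher in both pair-fed pools, and 75 of the 82 that fell were lower in both. Of the 1708 called genes 1488 went the same way in both pair-fed pools and 41 the opposite way in both. The share of all tested genes that did so was not counted, so these overlaps have no background beside them. The median rise of the 172 was 1.51 and 1.81 in the ethanol-fed and 2.14 and 2.62 in the pair-fed pools. The median change of the 82 was -1.53 and -1.35 in the ethanol-fed and -1.30 and -1.49 in the pair-fed pools. In the spindle list the pair-fed medians were 2.81 and 3.90, against 1.77 and 2.32, and in the helicase list 2.19 and 2.68 against 1.52 and 1.60. Cdk1 started at 3.98 and 3.72 in the pair-fed pools, lower than in the ethanol-fed, and ended at 8.03 and 8.87.

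The test of the difference called no gene after adjustment with limma (adjusted p of at least 0.0606), and 822 genes (9.48%) had an unadjusted p below 0.05, 356 (4.1%) with the more positive and 466 (5.37%) with the more negative change in ethanol-fed liver. Of the 33 spindle genes 27 were among the 466, and of the 14 helicase genes 9. For Cdk1 the difference was -1.99 ± 0.40 (unadjusted p = 0.00248), for Ccnb1 -2.44 ± 0.50 and for Mcm6 -1.06 ± 0.21. The genes with the smallest p on the more positive side were Per2 (1.93 ± 0.19), Lrtm2 (1.17), Ugp2 (which makes UDP-glucose for glycogen, 1.30), Ppp1r15b (0.92) and Fmo4 (1.21). In pair-fed liver Per2 went from 6.56 and 6.80 to 5.16 and 5.30, and Ugp2 fell by 1.84 and 1.25, against 0.25 in each ethanol-fed pool. On the more negative side they were Cdkn1a, Idi1, Dhcr7, Sqle and Acsl3, an acyl-CoA synthetase (-1.84 ± 0.20). A fit with a term for AM21 called 2 genes more positive and 35 more negative, 11 of them in the spindle list, and leaving out the AM21 pair-fed pool gave 12 and 34. Leaving out any of the other 3 pools gave 0 calls.

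**Figure D5:**
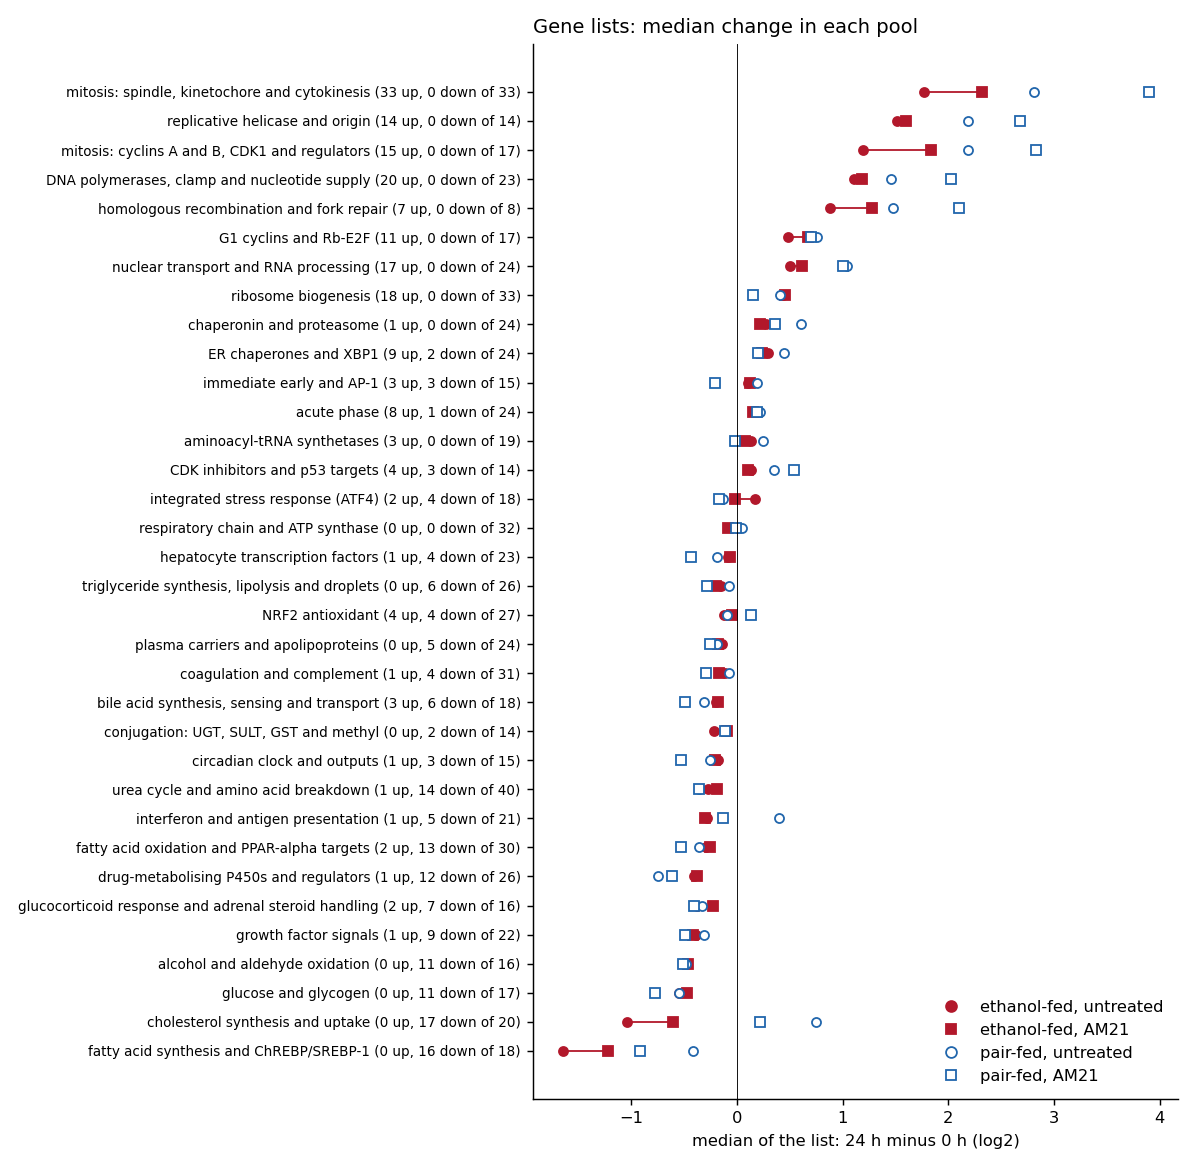
Median change from 0 h to 24 h (log2) of each gene list except the cell type marker lists in the 4 pools, with filled red symbols for the ethanol-fed and open blue symbols for the pair-fed pools, circles for untreated and squares for AM21, and the number of members called higher and lower in ethanol-fed liver after each name. The spindle list is at the top with 1.77 and 2.32 in ethanol-fed and 2.81 and 3.90 in pair-fed liver, the fatty acid synthesis list is at the bottom, and the cholesterol list is the one whose ethanol-fed medians of -1.04 and -0.60 stand opposite pair-fed medians of 0.75 and 0.22.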

How the data were processed

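The deposited values are log2 levels per probe set. Per the submitters' processing notes, the authors computed them by RMA using Affymetrix Expression Console; the version is not given in the sources used here. RMA normalises all arrays together, which hides a shift common to most genes, and it gives no detection call. Of 36685 probe sets 18511 have 1 gene symbol in the platform table, 575 have several and 17599 have none. The brightest probe set over the 4 ethanol-fed arrays stood for a gene, and a mean of at least 5 was required (genes just inside and outside stood at 5.00008 and 4.99999).

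The tests were run with limma's lmFit and eBayes (version 3.58.1, R 4.3.3), Benjamini-Hochberg adjustment over the 8675 genes and a threshold of 0.05. The ethanol-fed fit had the pool as a block, because the animal identifiers are the same at 0 h and 24 h, and 1 residual degree of freedom. The diet difference used all 8 arrays with the pool as a block and 1 time coefficient per diet, with 2 residual degrees of freedom. Each array is 1 pool of 3 or 4 animals, so no p-value measures the spread between animals. The eBayes step combines each gene's spread between pools with a prior taken from all tested genes. That prior carried 4.67 degrees of freedom in the ethanol-fed fit and 4.04 in the fit of the diet difference. The p-values and the ± values therefore reflect mostly a spread borrowed across genes, and the number of arrays limits the precision. Scripts were tested on simulated data. Alternatives changed the level minimum, the block, the source of the spread, the probe set rule, the normalisation, the variance trend and the pools included.

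The genes and lists were chosen with earlier results of these data known. Named were up to 15 rises and 15 falls of at least 1 log2 in both pools, ranked by the smaller pool change, up to 4 members per list with the largest mean change, and the 5 smallest p in each direction of the diet difference, passing over uncharacterised symbols. Other list members are named as examples, chosen after their values were seen. Promoters and the microRNA are RefSeq's (GRCr8), matched by symbol; the array's own build was not matched to it.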

Additional observations from a re-analysis of the deposited data

Results flagged for a closer look

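The cholesterol synthesis and uptake list differed between the diets: the median over its 20 genes of the ethanol-fed minus the pair-fed response was -1.46. The list as such was not tested, and no gene of it passed the adjusted threshold. Among the probe sets without a single gene symbol, which no comparison used, 38 rose at least 2-fold in both ethanol-fed pools and 12 fell. They were 0.908% and 0.287% of the 4185 such probe sets with a mean level of at least 5.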

How the results depend on the processing

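The numbers of genes higher (898) and lower (810) at 24 h stayed within 1.5 times, from 715 to 1279 higher, with a level minimum of 6, without the pool block, with averaged probe sets, with renewed quantile normalisation, with median centring and with a variance trend. Without a level minimum they were 245 and 116, and with the spread shared with the pair-fed arrays 405 and 357. With 1 pool left out and the spread shared with the pair-fed arrays, 2 choices at once, they were 0 to 20 and 3 to 6. Without the replicate block, which the matched animals call for, 715 rose and 633 fell. Centring moved the share of higher calls from 52.6% to 46.9%. The 172 genes higher by 2-fold in both pools were 100 at a level minimum of 6, and 221 to 252 with 1 pool alone; the 82 lower were 123 to 162. For the diet difference, no block gave 5 genes more negative, a term for AM21 gave 2 more positive and 35 more negative, and leaving out 1 pool gave 0 to 12 and 0 to 34. Of 151 named genes called, 81 stayed called without a level minimum, 116 with the shared spread and 142 without the block. The cause of these losses was not tested. Directions reversed only in genes that were not called: Slc4a1 (0.01) was -0.028 after quantile normalisation, -0.019 after centring and -0.29 to 0.31 with 1 pool left out, and with 1 pool left out Cybb ran from -0.32 to 0.063, Hba-a1 from -0.79 to 0.12, Hbb-b1 from -1.03 to 0.31 and Ppp1r15b from -0.20 to 0.015. The number of arrays limits the precision.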
